A study of Mus musculus with 4 samples.

Results

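The goosecoid gene Gsc (NCBI gene 14836, chromosome 12, 104471209 to 104473236, minus strand, mm10) had 13 peaks of FLAG-tagged MIXL1 within 150 kb of its span, out of 9598 peaks in the deposited list and 1541 on chromosome 12. The members were chosen by position alone: a peak was taken when its nearest edge lay within 150 kb of either end of the gene. The libraries were 2 anti-FLAG M2 precipitations and 2 inputs, all from mouse epiblast stem cells (EpiSC) that carried an inducible Mixl1 gene. EpiSC are cultured pluripotent cells that resemble the postimplantation epiblast. Both groups shared every treatment named in the labels' protocols. They were grown on irradiated embryonic fibroblasts in activin A (20 ng/mL) and bFGF (10 ng/mL), kept as embryoid bodies in serum for 2 days, and given 1 µg/mL doxycycline for the last 24 h. The sources used here name neither the promoter of the inducible gene nor the number of clones, and cells without doxycycline were not analysed here. Feeder cells could be present, and the files hold no expression values with which to check the cell type.

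Gsc encodes a paired-type homeodomain transcription factor, best known as a marker of the Spemann organiser in Xenopus and of the anterior primitive streak and its derivatives in the mouse. It is induced by Nodal and activin signals through SMAD proteins and by Wnt signals. In Xenopus, Mix family proteins, the relatives of MIXL1, bind an activin-responsive element in the goosecoid promoter and bring activated SMAD proteins to it. MIXL1, which the primitive streak expresses, belongs to the same homeodomain class as the product of Gsc. Proteins of this class recognise the core TAAT, singly or as inverted pairs.

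The sequence at the Gsc start is shown because the nearest peak lies just upstream of it. RefSeq (GRCm38.p6, the assembly that mm10 denotes) gives the window from 250 bases before to 50 bases after the start of Gsc. It also gives that of Gm10000, a predicted long noncoding RNA that starts 0.294 kb away and runs in the opposite direction. The Gsc window, chr12:104473187-104473486 on the minus strand, has its match to TAAT (read on the other strand, as ATTA) in capitals. The Gm10000 window, chr12:104473280-104473579 on the plus strand, has the bases that fall inside a MIXL1 peak in capitals.
Gsc: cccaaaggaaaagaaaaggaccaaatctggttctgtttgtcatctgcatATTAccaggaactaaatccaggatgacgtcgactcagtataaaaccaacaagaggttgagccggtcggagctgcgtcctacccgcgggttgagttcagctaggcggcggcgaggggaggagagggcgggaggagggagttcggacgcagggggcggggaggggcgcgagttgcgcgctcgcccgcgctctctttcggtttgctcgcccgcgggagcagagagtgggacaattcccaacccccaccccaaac
Gm10000: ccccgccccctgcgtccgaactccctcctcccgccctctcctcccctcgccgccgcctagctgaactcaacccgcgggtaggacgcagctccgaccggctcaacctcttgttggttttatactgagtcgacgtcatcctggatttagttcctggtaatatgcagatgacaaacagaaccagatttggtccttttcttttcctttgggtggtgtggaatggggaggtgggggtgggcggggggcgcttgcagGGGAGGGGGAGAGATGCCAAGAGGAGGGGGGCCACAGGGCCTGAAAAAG

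The nearest peak, chr12:104473531-104473867, covered bases 295 to 631 upstream of the Gsc start and was 337 bp wide. It lay inside the annotated span of Gm10000, and its first base was 1 base beyond the Gm10000 start, so 49 bases of the Gm10000 window were inside it. The Gsc window ended 44 bases short of the peak. Both windows share 207 bases, read on opposite strands. A peak overlapping the start window, or as near to it as at Gsc, was found for 3.13% of the 1277 RefSeq start windows of chromosome 12 and for 1.52% of the 32851 windows of all chromosomes. Start windows that overlapped a peak, as that of Gm10000 did, made up 2.82% on chromosome 12 and 1.38% in all. Counted over whole gene spans, where a peak anywhere inside the gene also counts, 33.4% of the other 677 protein-coding genes of chromosome 12 had a peak at or within the 0.295 kb of Gsc.

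Of 5 sequence patterns searched on both strands, TAAT was the one that matched in the Gsc window, with 1 match whose first letter stood 201 bases before the start (chr12:104473434-104473437), outside the peak. The same bases gave the 1 match in the Gm10000 window. TAAT occurred in 58% of all start windows. Inverted pairs of this core, which contain it, had no match in either window: TAATNATTA occurred in 0.618%, TAATNNATTA in 0.39% and TAATNNNATTA in 0.487% of all windows. CAGAC, which holds the core of the SMAD binding site, had no match in either window and occurred in 49.6% of all. These matches describe the letters of the windows only. The sequence under the peaks beyond the 49 bases shown was not used here.

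The 13 peaks formed an uneven string along 217 kb, with 10 of them upstream of Gsc and 3 downstream. No peak overlapped the 2028 bp of Gsc itself. On the downstream side a peak of 272 bp lay 3.94 kb beyond the 3′ end of Gsc (chr12:104466996-104467267), so that the gene stood between this peak and the one at its start. This was the narrowest of the 13, and 92.0% of the peaks of chromosome 12 were at least as wide.

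The other downstream peaks stood on either side of Serpina3n, which encodes a secreted inhibitor of serine proteases. The one at chr12:104405169-104405549 lay 65.7 kb from Gsc, 1.10 kb before the Serpina3n span. On its other side the long noncoding RNA gene Gm40561 was about as near, at 1.0 kb. The one at chr12:104414972-104416472 lay 54.7 kb from Gsc and 0.638 kb past the end of Serpina3n. At 1501 bp the peak past its end was the widest of the 13, against 667 bp for the next, and 5.71% of chromosome 12 peaks were at least as wide.

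Upstream, the peaks came in clumps separated by wide gaps. After the peak at the start there was none for 32.4 kb, then a close pair inside Gm10000, of 390 and 432 bp, 33.0 and 34.5 kb from Gsc and 1.10 kb apart (chr12:104506228-104506617 and chr12:104507720-104508151). A clump of 4 peaks followed beyond the end of Gm10000, within 8.01 kb and 74.3 to 81.7 kb from Gsc. Its members were chr12:104547541-104547906, chr12:104548452-104548736, chr12:104552517-104553034 and chr12:104554919-104555545, and the first pair was only 0.545 kb apart. This clump held more peaks than any other within the 150 kb, and no annotated gene spanned it. A single peak stood 120.2 kb away (chr12:104593401-104593928), and a last pair at 144 and 148 kb (chr12:104617284-104617774 and chr12:104621203-104621869).

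**Figure D1:**
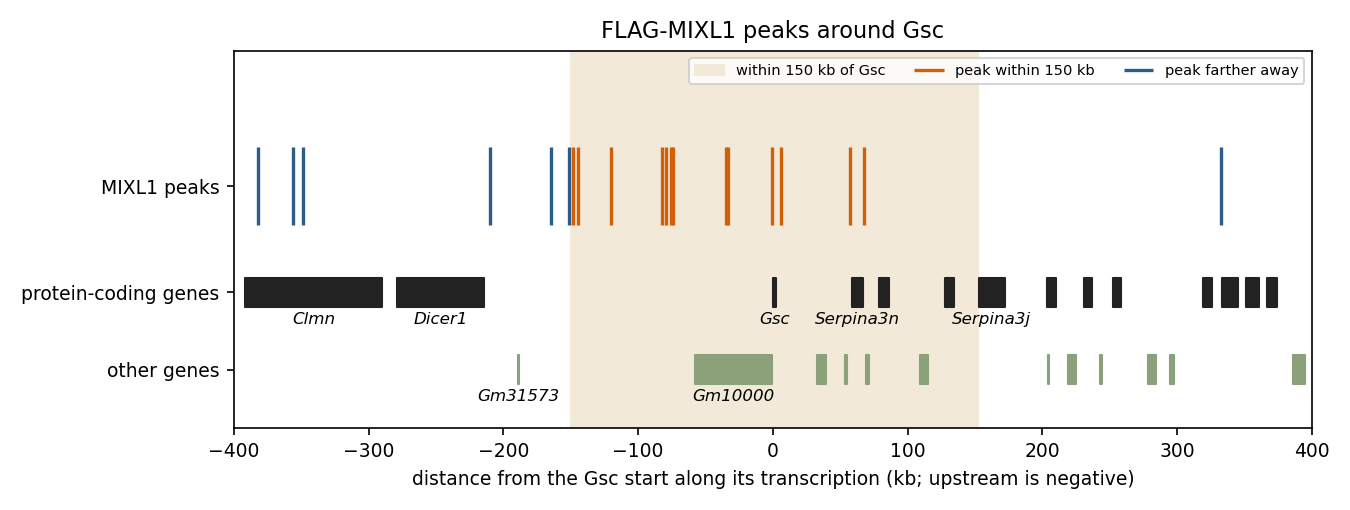
Positions of FLAG-MIXL1 peaks (top row, one line per peak at its centre) and gene spans (lower rows) by distance from the Gsc start in kb, along the direction of Gsc transcription, with the stretch within 150 kb shaded. The 13 peaks inside the shading gather mostly upstream of Gsc (10 of 13), and the downstream side has no peak from the Serpina3n flank to 330 kb.

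Joining peaks whose facing edges lay within 10 kb gave 6 groups, of which 5 held 2 or more peaks and together 12 of the 13. On chromosome 12 as a whole 54.0% of peaks fell in such groups, and 30.3% on all assembled chromosomes. The median gap between neighbouring peaks was 7.84 kb among the 13 at Gsc, against 21.3 kb on chromosome 12 as a whole. Gaps that run past the outermost of the 13 were left out. Short gaps and grouping go with a high count of peaks in a limited stretch, so they are not separate observations. By centre, 3 of the 13 peaks lay inside Gm10000, none inside a protein-coding gene, and 10 outside every annotated gene. Of all chromosome 12 peaks, 34.4% lay inside a protein-coding gene, 27.2% inside other genes only and 38.4% outside every gene. Among the 13, Gsc was the nearest protein-coding gene for 8, Serpina3n for 2 and Dicer1 for the 3 farthest upstream. Dicer1 encodes the ribonuclease that matures microRNAs. The list does not say which gene a peak acts on.

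Most of the 13 peaks were narrower than the median peak of this chromosome. Their median width was 432 bp, against 563 bp for all peaks of chromosome 12 (quartiles 371 and 865 bp), and 3 of the 13 exceeded that median. The median at Gsc lay between these quartiles, and the median of all assembled chromosomes was 485 bp. Widths of 1 kb or more were reached by 1 of the 13 and by 18.0% of chromosome 12 peaks. The 4 peaks within 50 kb were 272 to 432 bp wide, all below the chromosome's median. Width is not a measure of binding strength, and the list gives no other value for a peak.

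**Figure D2:**
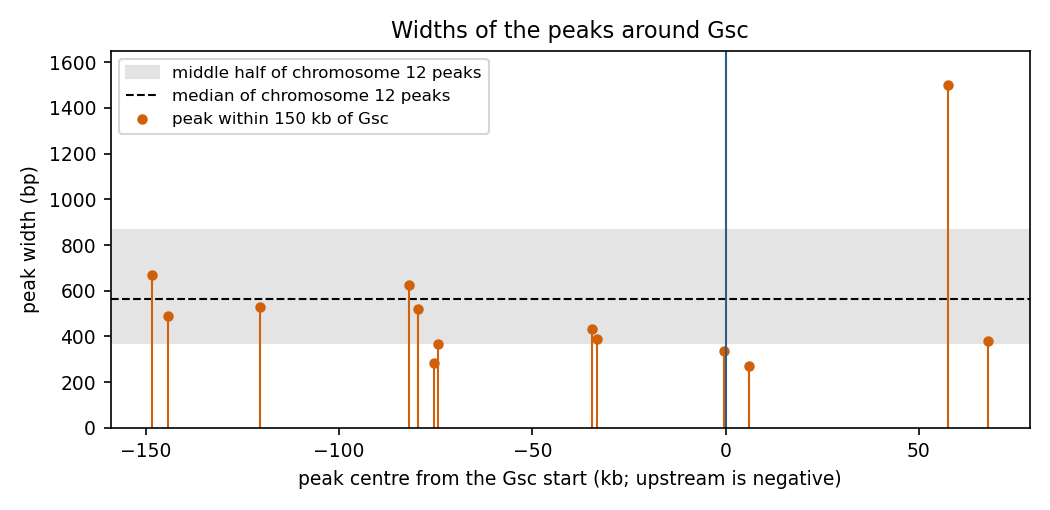
Width in bp of each of the 13 peaks by distance of its centre from the Gsc start in kb, with the dashed median (563 bp) and shaded quartile range (371 to 865 bp) of all chromosome 12 peaks. All but 3 points lie below the dashed line, and 1 peak of 1501 bp beside Serpina3n stands far above it.

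The question set by the position of Gsc is whether its neighbourhood holds more peaks than chromosome 12 does in general, since this chromosome is itself dense in peaks. The window of 302 kb around Gsc held 43.0 peaks per Mb (95% Poisson interval 22.9 to 73.6), against 13.1 per Mb on the rest of chromosome 12 (12.4 to 13.8) and 3.41 per Mb on the other autosomes (3.33 to 3.48). The ratio to the rest of chromosome 12 was 3.29 (exact conditional interval 1.75 to 5.64). Against the flanks from 150 kb to 1 Mb on both sides, which held 34 peaks at 20.0 per Mb, it was 2.15 (1.04 to 4.18). The cause of the density of chromosome 12 was not tested. Because the locus was singled out with its peaks known, these ratios are given as a description, without a test. The intervals cover counting of peaks only, and peaks cluster. With peaks within 10 kb joined, the ratio was 2.38 (0.870 to 5.19) to the rest of chromosome 12 and 1.47 (0.489 to 3.71) to the flanks, and both intervals reach below 1.

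By count, more of the 13 peaks lay upstream than downstream. The 150 kb upstream held 10 peaks, or 66.7 per Mb (32.0 to 123), which was 5.09 times the rest of chromosome 12 (2.44 to 9.39) and 2.58 times the next 850 kb upstream (1.09 to 5.67). The 150 kb downstream held 3 peaks, or 20.0 per Mb (4.12 to 58.4), which was 1.53 times the rest of the chromosome (0.315 to 4.47). The ratio between the sides was 3.33, with an interval of 0.858 to 18.8 that takes in equal density. It is a description of this locus and no test of the sides. All these intervals count each peak of a clump singly.

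Upstream, the density past 150 kb was 30.0 per Mb from 150 to 250 kb and 28.0 per Mb from 250 to 500 kb. Their intervals of 6.19 to 87.7 and 11.3 to 57.7, from 3 and 7 peaks, take in the chromosome's 13.1. The whole stretch from 150 kb to 1 Mb upstream held 22 peaks, or 25.9 per Mb. Its interval of 16.2 to 39.2 lies above 13.1, with each peak of a clump counted singly. The same stretch downstream held 12 peaks, or 14.1 per Mb (7.29 to 24.7). The 150 kb limit falls among closely spaced peaks: the last peak inside lay at 148 kb (667 bp wide), the first outside at 151 kb (1102 bp) and the next at 164 kb (924 bp). Farther upstream, no peak was listed for 138 kb, from 210.0 to 349 kb, a stretch that takes in the whole of Dicer1. It was picked as the longest gap within 500 kb upstream, and 12.4% of the other gaps on chromosome 12 were at least as long. Downstream there was no peak between chr12:104141223 and chr12:104405169. This stretch of 264 kb holds 7 protein-coding genes, all within the Serpina3 cluster of protease inhibitor genes, and 5 pseudogenes. Of the other gaps between neighbouring peaks on chromosome 12, 80 (5.2%) were at least as long. Such long gaps make up a larger share of the chromosome's length than of its gaps. Within 1 Mb, 32 peaks lay upstream of Gsc and 15 downstream.

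**Figure D3:**
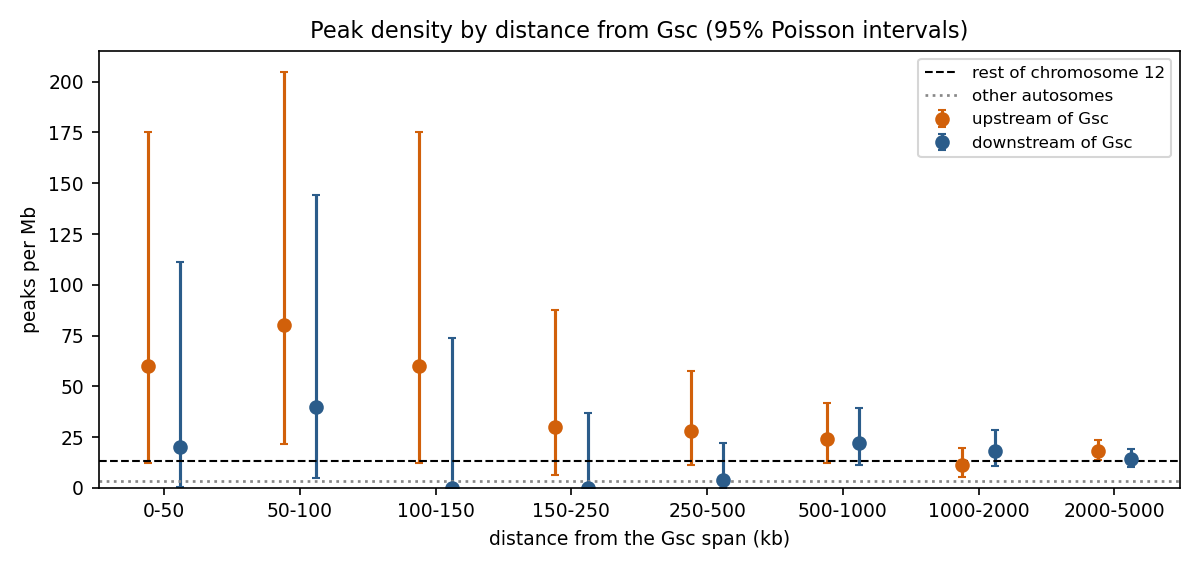
Peaks per Mb in successive distance classes upstream and downstream of the Gsc span (points, with 95% Poisson intervals), with lines at the rest of chromosome 12 (13.1 per Mb) and the other autosomes (3.41 per Mb). The 3 upstream classes within 150 kb lie at 60.0 to 80.0 per Mb, while downstream the classes from 100 to 250 kb hold no peak.

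The same 150 kb rule was applied to every other protein-coding gene of chromosome 12. The 13 peaks of Gsc were matched or exceeded by 55 of 677 genes (8.12%), whose median was 5 peaks and highest count 32. These 55 genes lay in 22 separate stretches, and 1 of them, with Dicer1 and Clmn, overlaps the Gsc window and shares peaks with it. On the other autosomes 104 of 19878 genes (0.523%) had 13 or more. Gene spans differ in length, and by peaks per Mb of window 3.69% of chromosome 12 genes equalled or exceeded Gsc. Cut into 387 adjoining stretches of the length of the Gsc window, chromosome 12 had 17 (4.39%) with 13 peaks or more. Their median was 2 peaks, and 101 held none.

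How far Gsc stood from its chromosome depended on the distance allowed. Within 10 kb it had 2 peaks, a count reached by 24.1% of the other chromosome 12 genes, and within 50 kb it had 4, also reached by 24.1%. Within 100 kb it had 10, reached by 8.57%, and within 500 kb 24, reached by 22.5%. With peaks within 10 kb joined, a setting chosen after seeing the data, the 6 groups of Gsc were reached by 27.0% of these genes, whose median was 4.

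**Figure D4:**
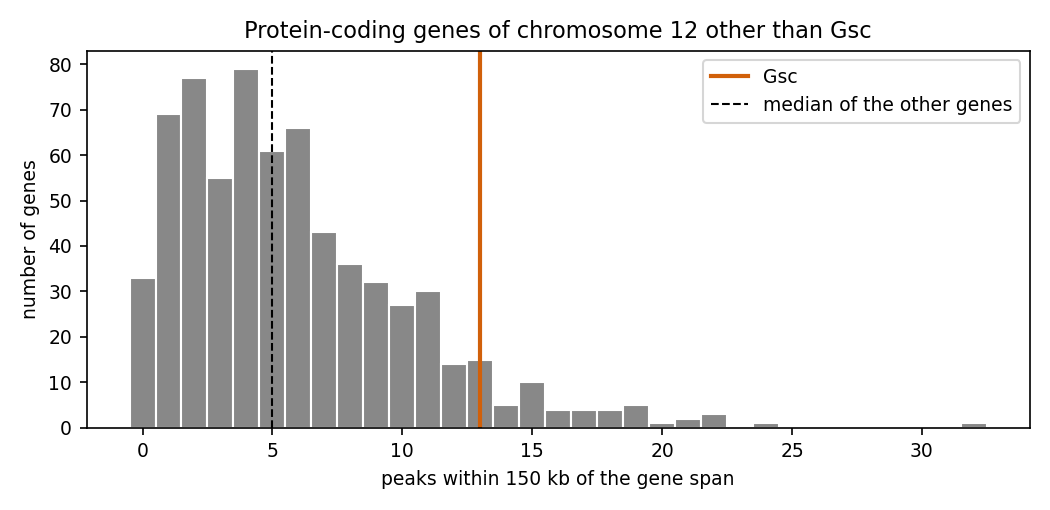
Number of peaks within 150 kb of each of the 677 other protein-coding genes of chromosome 12 (bars, number of genes for each count), with Gsc at 13 (solid line) and the median of the others at 5 (dashed line). Gsc sits in the upper tail, where 55 genes lie at 13 or above.

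A list of 20 genes, drawn up for the organiser and anterior streak, was set beside Gsc by the same rule. It also takes in Gsc2, a relative of Gsc, and Mixl1 itself, and none of its genes is on chromosome 12. Of these 20 genes, 17 (85.0%) had at least 1 peak within 150 kb, against 65.0% of the 20556 protein-coding genes of all autosomes. The median was 1.5 peaks in the list and 1 over all those genes. In the list, the following counts are within 150 kb. None reached 13. Lhx1, which encodes a LIM-homeodomain partner of head organiser formation, came nearest with 7 peaks, the nearest of them at 8.96 kb. Eomes, a T-box gene needed for definitive endoderm, had 5, the nearest of them at 0.777 and 0.836 kb. Foxa2, which encodes a forkhead factor of endoderm and notochord, and Otx2, a homeobox gene of the anterior embryo, had 4 each. Among genes of secreted antagonists, Nog had 3, Dkk1 and Chrd 2 each, and Cer1 1 that overlapped its span. Gsc2, the relative of Gsc on chromosome 16, had 1 peak at 99.7 kb, and Mixl1 had 1. Lefty1 had 3 with the nearest at 9.96 kb, Sfrp5 2 with the nearest at 53.6 kb, Hhex 1 at 3.81 kb and Mesp1 1 at 35.5 kb. T and Fst entered the count through 1 peak each, at 147 kb. Shh, Sfrp1 and Sox17 had none.

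Genes that act upstream of Gsc or encode partners of its product gave 19 of 23 (82.6%) with a peak within 150 kb and a median of 2, against 65.0% and a median of 1 over all autosomal genes. Both lists share 6 genes. Tcf7l1, which encodes a repressing TCF factor of the Wnt pathway, had 10 peaks, of which 8 overlapped its span of 163 kb. Tcf7l2, which encodes another TCF factor, had 5, of which 3 overlapped its span of 192 kb. Gsc, at 2.03 kb, has far less length in which a peak could overlap it. The Nodal ligand gene had 3, the co-receptor gene Tdgf1 2 and the type I receptor gene Acvr1b 4. Foxh1, which encodes the forkhead partner of SMAD proteins, had 3 peaks with 1 overlapping its span, Smad2 and Smad4 had 2 each and Smad3 1. Among the other Wnt pathway genes, Wnt8a had 4 with the nearest at 12.7 kb, and Lef1 had 3 with 1 overlapping its span. Ctnnb1 and Tcf7 had 2 each, and the receptor gene Acvr2b had 1. Acvr2a, Drap1, Wnt3 and Ldb1 had none.

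**Figure D5:**
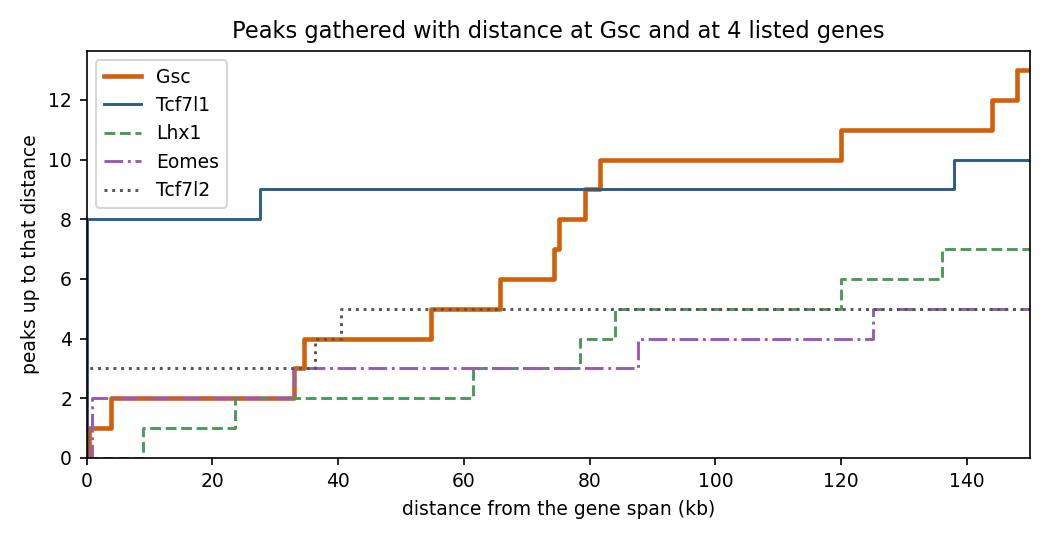
Running number of peaks by distance from the gene span in kb, for Gsc and the 4 listed genes with 5 or more peaks within 150 kb. Gsc has 4 peaks by 50 kb and 10 by 100 kb, Lhx1 has 2 and 5, and Tcf7l1 starts at 8 peaks that overlap its 163 kb span. The 4 listed genes lie on other autosomes, which together hold 3.41 peaks per Mb, against 13.1 on the rest of chromosome 12.

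The genes most like Gsc in their counts within 10, 50, 100 and 150 kb (2, 4, 10 and 13) were sought among 20520 protein-coding genes of the autosomes that lie more than 1 Mb from it. Likeness was the sum of the 4 absolute differences. Gm9573 on chromosome 17 (2, 6, 10 and 13 peaks), Mup7 on chromosome 4 (2, 3, 10 and 14) and Cd40 on chromosome 2 (2, 4, 9 and 12) each differed by 2 in sum. Cyp46a1 (1, 4, 11 and 14) and Gm46345 (2, 7, 10 and 13), both on chromosome 12, differed by 3. None of them is a member of the organiser or upstream lists.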

How the data were processed

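A single list of 9598 peaks, deposited by the authors for 4 libraries together, holds positions only, without a value for any peak. The submitters' processing notes name MACS2, Bowtie2, SAMtools and CASAVA 1.8.2, and the mm10 build. How peaks were thresholded and filtered, how the inputs were used and whether replicates were pooled is not described in the labels or processing notes used here. Depth per library is therefore unknown, and no value has a replicate error.

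Positions are 1-based. Distances run from the nearest edge of a peak to the gene span in the RefSeq table of GRCm38.p6. Chromosome length ran from 3 Mb to the end of the last RefSeq gene. Poisson and conditional intervals (95%) were exact, and the density code was tested on simulated data. Named genes were Gsc, genes in or next to its window, the 5 genes most alike, and members of 2 gene lists. The locus, lists and settings were chosen with earlier results of these data known. Tables were handled with pandas 2.3.3, intervals computed with scipy 1.17.1 and numpy 2.4.6, and figures drawn with matplotlib 3.10.9, under Python 3.11.15.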

Additional observations from a re-analysis of the deposited data

How the results depend on the processing

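Of 31 alternative values, 20 stayed within a limit set around the reported one and 11 did not. Counts and percents of genes had a limit of 1.5 times, ratios the 95% interval, and median widths the quartiles of the 13 widths. The intervals of the ratios are wide, and all 8 ratios to the rest of chromosome 12 and all 5 to the flanks fell within theirs. The number of peaks within 150 kb of Gsc was 12 with peaks within 1 kb joined, 6 with peaks within 10 kb joined, 6 among the wider 50% of all peaks and 7 among the others. The ratio to the rest of chromosome 12 was lowest, at 1.83, with 500 kb on each side. It was highest, at 5.28, when stretches of 1 Mb holding at least 20 peaks were dropped from the comparison. Dropping stretches for their many peaks lowers the density compared with, so it can only raise the ratio. The value of 5.28, although counted among the 20, is therefore no check of the reported ratio. Dropping the immunoglobulin V segments from the comparison also raised the ratio, to 3.8 (2.02 to 6.53). The distance of the nearest peak, also among the 20, stayed at 0.295 kb when taken from the transcription start. The start is the end of the Gsc span that faces this peak, so that value is no check either. The interval of the ratio to the rest of chromosome 12 reached below 1 with 50 kb on each side (0.812 to 7.65), among wider peaks (0.945 to 5.64) and with joined peaks. The ratio to the flanks ran from 1.47 to 2.74, and its interval also reached below 1 among wider peaks (1.61, 0.531 to 4.12) and with joined peaks. The percent of chromosome 12 genes that reached Gsc was 24.1 within 50 kb, 13.9 within 250 kb, 13.6 with genes of every type, 3.69 by peaks per Mb, 27.0 with peaks within 10 kb joined and 18.5 among wider peaks, the last pair added after seeing the data. It was 0.523 on the other autosomes. The median width was 364 bp within 50 kb, 386 bp within 100 kb and 504 bp within 250 kb. The cause of these shifts was not tested. No paired analysis was possible because the list does not separate the libraries, so no library could be left out either.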

Other observations

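The next protein-coding genes upstream of Gsc had peaks in common with it. Dicer1, whose span begins 215 kb from Gsc, had 15 peaks within 150 kb, of which 7 are also within 150 kb of Gsc, and its nearest peak was 4.08 kb away. Clmn, which encodes a membrane protein with calponin homology domains, lies 290.0 kb from Gsc, had 15 peaks within 150 kb and shared 2 with Gsc. Its span was overlapped by 3 peaks, while none overlapped that of Dicer1. On the other side Serpina3n shared all of its 10 peaks with Gsc, Serpina3m all of its 6 and Serpina3k all of its 4. Counts of neighbouring genes are therefore not separate observations.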
